A study of Ciona robusta with 6 samples.

Results

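This account concerns 161 gene models of Ciona robusta chosen for a wide difference in level between the replicate numbers of the experiment. They were also required to differ little between the guides in at least 2 of the 3 numbers. They were found among 15284 models in the deposited table. The members were selected by their own measured values. A model had to reach a normalised count of 10 or more in at least 3 of the 6 libraries, which 11953 models did. For each replicate number, the mean of log2(value + 1) over its CrGFP and its CrBra library was taken. The highest of the 3 means had to exceed the lowest by 3 or more, which is 8-fold on that scale. The difference CrBra minus CrGFP also had to lie between -0.8 and 0.8 in at least 2 of the 3 numbers. The range itself is therefore a description of how the members were found and was not tested.

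RNA was sequenced from whole embryos in 6 libraries, 3 per guide. CrGFP embryos came from unfertilized eggs injected with Cas9 protein, tracrRNA and a crRNA against GFP, a sequence foreign to the animal, and served as controls. CrBra embryos received the same mixture with a crRNA against Brachyury, the T-box factor of the notochord lineage. The labels name no strain and no further genotype. Embryos grew at 21 degrees Celsius and were pooled, 50 to 85 per library, at neurulation (Hotta stage 14). Injected embryos can carry a mixture of cut and uncut alleles, so a library is an average over cells and embryos. The design text calls the replicates biological. The labels do not say what libraries with the same number share, such as parents, day of injection or sequencing run, so "replicate number" is used here in place of batch.

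A tunicate neurula consists of a fixed and small set of lineages: epidermis, neural plate, notochord, muscle, mesenchyme, endoderm, and germ-line precursors. RNA at this stage is a mixture of maternal transcripts laid down in the egg and zygotic transcripts made by the embryo. KH identifiers are computer-built gene models of this species. Of the 15284 identifiers, 0 matched the RefSeq gene table used here, so no member is given a gene name, a function, a position or a sequence. For the same reason the lists of cell type markers, stress genes, maternal genes and mobile elements could not be read, and the stage and tissues of the libraries could not be checked against markers. In bulk embryos, fewer cells of a type and less RNA per cell cannot be told apart.

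The libraries held 13191537 to 16094085 recovered reads, and the authors' normalised totals ran from 13627742 to 14896910. The median value of the 11953 models was 405 to 417 in the 6 libraries. The members lay far lower, with medians of 43.6 and 48.3 in the libraries of number 1, 33.5 and 34.6 in number 2 and 30.5 and 30.7 in number 3, in each case CrGFP before CrBra. A library in which a model had 0 reads allows a value of up to 2.54 to 3.35, the worth of 3 reads, and this covers counting error only.

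The members fell into 6 groups by the replicate number that stood apart from the other numbers. Each member was placed by the larger of its 2 gaps, from the highest to the middle number or from the middle to the lowest. In 57 members the upper gap was at least as large, and these are called high. Of them, 24 were high in number 1, 20 in number 2 and 13 in number 3. In 104 members the lower gap was larger, and these are called low. Among these, 36 were low in number 1, 37 in number 2 and 31 in number 3. The gaps could be close, as in KH.C11.33, called low in number 1 with a lower gap of 3.22 and an upper gap of 3.14. No single number held most of them, since number 1 stood apart in 60 members, number 2 in 57 and number 3 in 44. The highest and lowest numbers were 1 and 2 in 68 members, 2 and 3 in 49, and 1 and 3 in 44.

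The share of members grouped as low moved with the filter on low values and with the pseudocount. The part of either was not tested. A model seen in the 2 libraries of only 1 number cannot reach 10 in 3 libraries and was left out. Among the left-out models, 107 met the other conditions, and of these 81 stood high in 1 number and 26 stood low. The share of members grouped as low was 64.6% by the rule, 48.5% with no filter and 46.9% when 2 libraries at 10 were enough. It was 77.9% with a minimum of 50 in 3 libraries. Under the filter of the rule, it was 68.8% with a pseudocount of 0.5 and 44.6% with a pseudocount of 5.

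**Figure D1:**
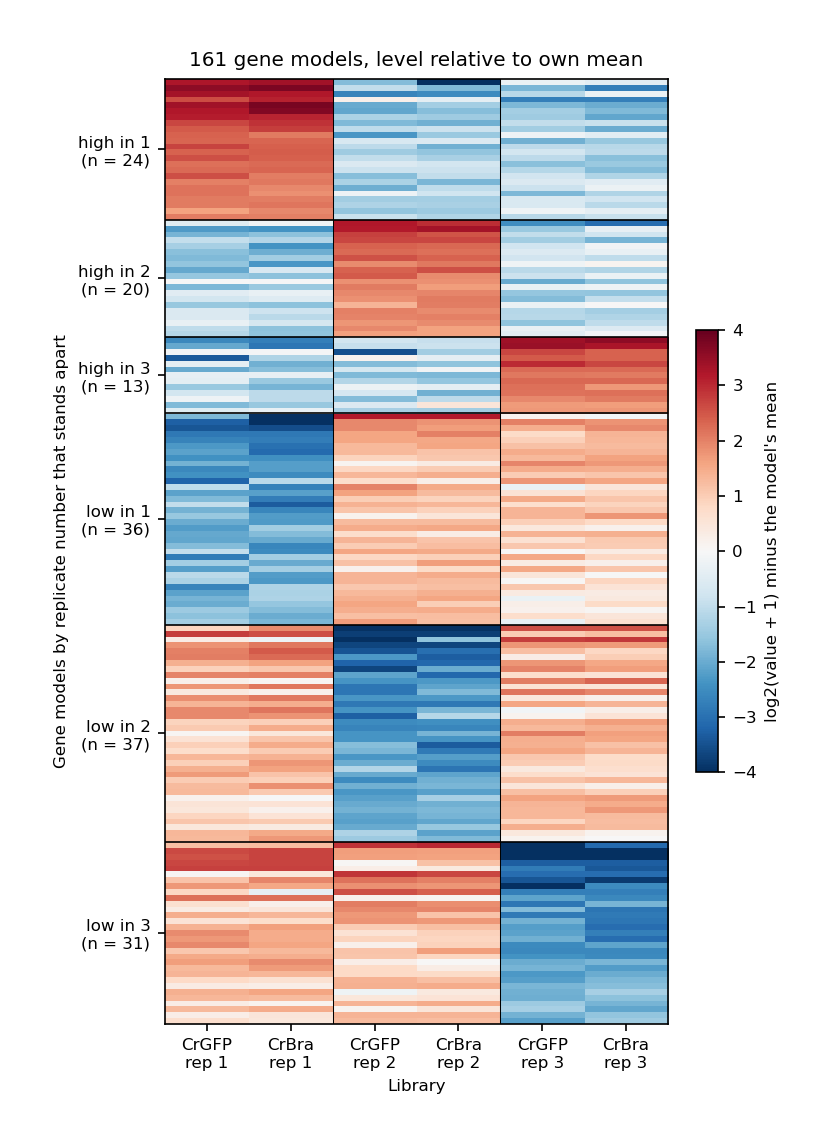
Each line is 1 of the 161 gene models and each column 1 library, ordered by replicate number. Colour gives log2(value + 1) minus the model's own mean over the 6 libraries, with colours saturating beyond 4 in size. Models are grouped by the number that stands apart (24, 20 and 13 high in numbers 1, 2 and 3, and 36, 37 and 31 low), and the CrGFP and CrBra libraries of a number carry like colours.

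Ranges between number means ran from 3.01 to 7.16 on the log2(value + 1) scale, with a median of 3.82, against a median of 0.56 over all 11953 models. A range of 4 or more was found in 67 members, of 5 or more in 27 and of 6 or more in 8. Among all tested models, 180 (1.51%) reached a range of 3, and 19 of these were left out because their guide difference was too large in 2 or more numbers. The threshold cut a continuous distribution, as 365 models had ranges from 2 up to 3. Just inside it lay KH.C4.209 with a range of 3.01, at 19.4 and 13.5 in number 1, 139 and 136 in number 2, and 32.6 and 40.9 in number 3. Just outside lay KH.C9.449 with a range of 2.9996, at 132 and 162, 19.3 and 15.6, and 103 and 111 in the same order.

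In all 161 members the 2 libraries of the number that stood apart did not overlap the other 4. The same held for 10466 of the 11953 tested models (87.6%), so it does not set the members apart. In a limma test of the replicate numbers that allowed for the guide, all 161 members passed an adjusted p of 0.05, as did 8772 of all models (73.4%). The rule used this contrast, and nothing is read from the members' count.

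Members high in number 1 had a median value of 290 in that number and of 19.8 in the others. KH.L96.116 had the largest range among them, 6.26. It stood at 548 in CrGFP and 594 in CrBra of number 1, at 16.3 and 2.23 in number 2, and at 46.8 and 42.0 in number 3. Its libraries of number 1 were far above the other 4, and it was lowest in number 2. KH.C7.130, with a range of 5.95, stood at 809 and 924 in number 1, 33.5 and 19.0 in number 2, and 18.3 and 9.21 in number 3. Here the normalised values of numbers 2 and 3 did not overlap either, with number 3 the lowest. The separation was slight, with 17 reads in CrBra of number 2 and 18 in CrGFP of number 3.

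Members high in number 2 had a median value of 182 there and of 27.5 elsewhere. KH.C1.152 stood at 310 and 260 in number 2, at 23.3 and 29.6 in number 1, and at 5.09 and 3.07 in number 3, a range of 5.84 over 3 separate levels. KH.S1569.1 stood at 128 and 143 in number 2, and at 1.94 and 1.69 in number 1. In number 3 it held 4.07 and 10.2. Its range was 5.60, and the low libraries rested on few reads.

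Members high in number 3 were the smallest group, with a median value of 223 in that number and of 15.7 in the others. KH.C8.763 stood at 305 in CrGFP and 346 in CrBra of number 3, at 3.88 and 3.39 in number 1, and at 16.3 and 14.5 in number 2. KH.C11.627 stood at 844 and 729 in number 3, at 17.4 and 9.31 in number 1, and at 39.6 and 41.3 in number 2. In both models number 1 was the lowest and number 2 lay between, without overlap, with ranges of 6.14 and 5.83.

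Members low in number 1 had a median value of 7.20 in that number and of 82.0 in the others. KH.C11.33 stood at 5.81 and 0 in number 1, at 213 and 214 in number 2, and at 25.4 and 21.5 in number 3, a range of 6.36. KH.S1022.2 had 1 read in CrGFP and 0 in CrBra of number 1. Its values were 71.2 and 65.9 in number 2 and 76.3 and 65.5 in number 3, so the numbers 2 and 3 overlapped and only number 1 was low.

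Members low in number 2 were the largest group and the least abundant, with a median mean value of 32.9 over the 6 libraries. The median was 2.69 in that number and of 47.1 in the others. KH.C8.896 had 0 reads in both libraries of number 2, and stood at 27.1 and 55.9 in number 1 and 91.6 and 88.0 in number 3. Against a floor of 3 reads per library, number 3 was at least 28.1-fold higher than number 2. KH.S599.2 likewise had 0 reads in number 2, and stood at 91.1 and 80.4 in number 1 and 26.5 and 30.7 in number 3. Number 1 was at least 26.8-fold higher on the same floor.

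Members low in number 3 held the 3 largest ranges of all. Their median value was 7.14 in that number and 106 in the others. KH.C1.379, with the largest range at 7.16, stood at 182 and 185 in number 1 and 590 and 640 in number 2, but at 1.02 and 8.19 in number 3. KH.C3.736 stood at 4704 and 4924 in number 1, 2381 and 2361 in number 2, and 34.6 and 38.9 in number 3. The mean of number 1 was 131 times that of number 3. Its level in number 3 rested on 34 reads in CrGFP and 38 in CrBra, so it was low but detected there.

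**Figure D2:**
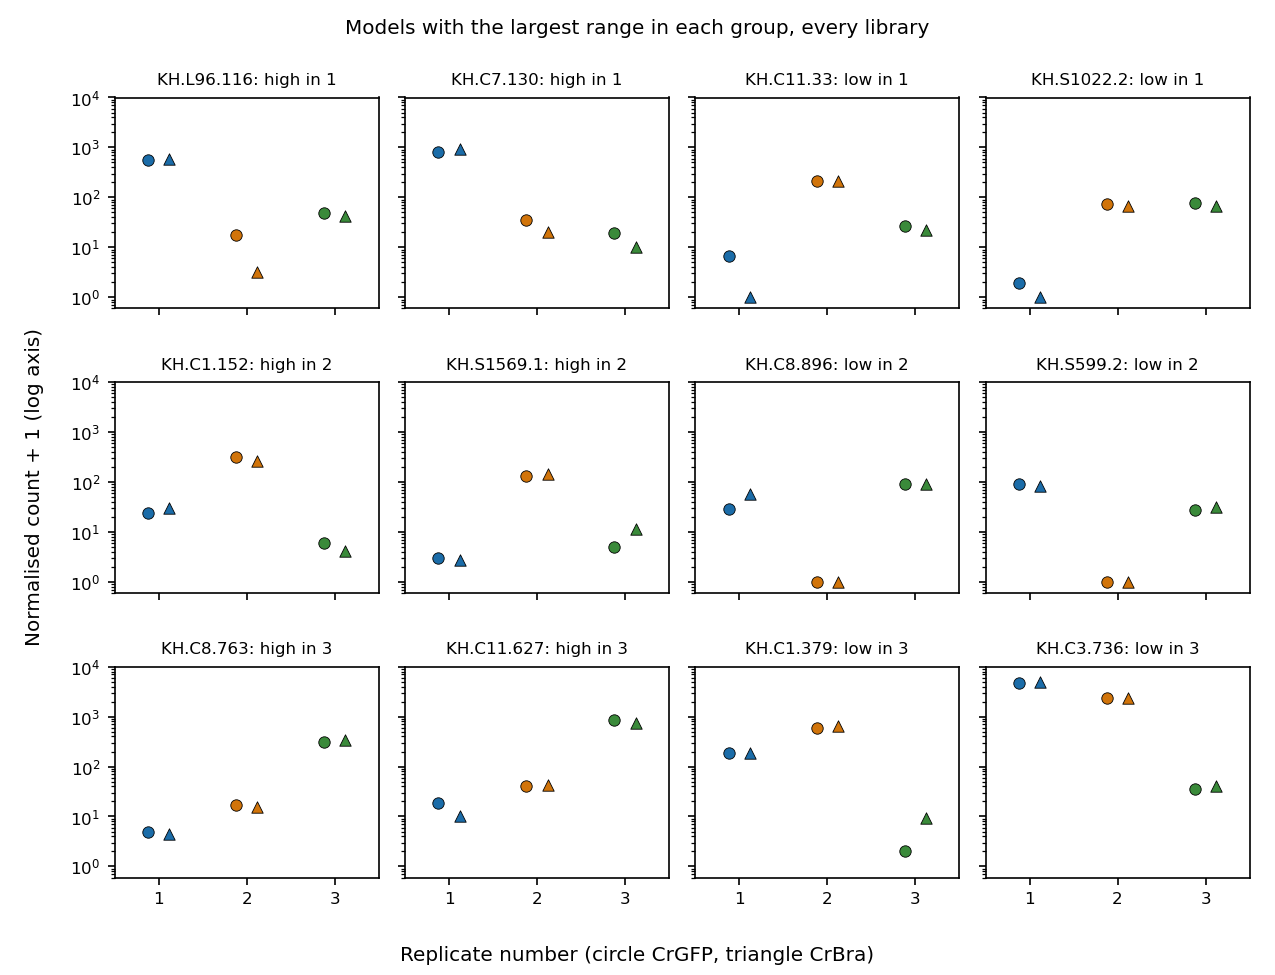
Normalised count plus 1 on a log axis in every library, for the 2 models with the largest range in each of the 6 groups. Circles are CrGFP and triangles CrBra, by replicate number. KH.C3.736 passes from 2361 or more in numbers 1 and 2 to 38.9 or less in number 3, and KH.C8.896 and KH.S599.2 sit at 1, a count of 0, in number 2.

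Some members were far above the rest in abundance, and their highest numbers rest on many reads. In number 3, however, KH.C3.736 held only 34 and 38 reads, and KH.S1577.1 stood at 32.6 and 29.7. The 6 members with a mean value of 1000 or more were chosen for description after their values were seen. KH.S2734.1 was the most abundant, at 12409.5 and 11114 in number 1, against 1055 and 862 in number 2 and 1026 and 661 in number 3. It made up 26.5% of the members' summed value in number 1 and 3.57% and 3.56% in the other numbers.

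KH.C1.755 was low in number 2, at 414 and 459, against 5153 and 4281 in number 1 and 4857 and 4046 in number 3. KH.C12.71 was low in number 3, at 274 and 299.8, against 1210.1 and 1174 in number 1 and 2605 and 2716 in number 2. KH.C2.477 was high in number 3, at 3244 and 2380.0, against 253 and 196 in number 1 and 602 and 548 in number 2. These 3 models show both directions at high depth, with ratios of 10.8, 9.28 and 12.5 between the highest and the lowest number.

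KH.S1577.1 closely followed the pattern of KH.C3.736. It stood at 3548 and 4006 in number 1, 1917 and 1866 in number 2, and 32.6 and 29.7 in number 3, a range of 6.88. Whether the models share reads or sequence was not tested. KH.L22.21, also singled out after its values were seen, differed by at most 0.012 (log2) in size between the guides in every number, at 289 and 288, 105 and 104, and 1542 and 1538 in numbers 1, 2 and 3.

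Together the members took 0.323% and 0.322% of the normalised total in CrGFP and CrBra of number 1, 0.181% in both libraries of number 2, and 0.172% and 0.157% in number 3. Without the 6 abundant models, the shares were 0.126% and 0.134% in number 1, 0.121% in both libraries of number 2, and 0.106% and 0.105% in number 3. The higher share in number 1 thus lay mainly in a few models.

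Members were mostly of low abundance. Their median mean value over the 6 libraries was 65.1, against 422 over all tested models. By mean value, members were 3.31% of the 1267 models under 30, 3.99% of the 1679 from 30 to 100, 0.844% of the 5453 from 100 to 1000 and 0.169% of the 3554 at 1000 or more. The median range of all models also fell with level, from 1.003 in the lowest of these classes to 0.42 in the highest. Level therefore moved with membership, and its part in the result was not tested.

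**Figure D3:**
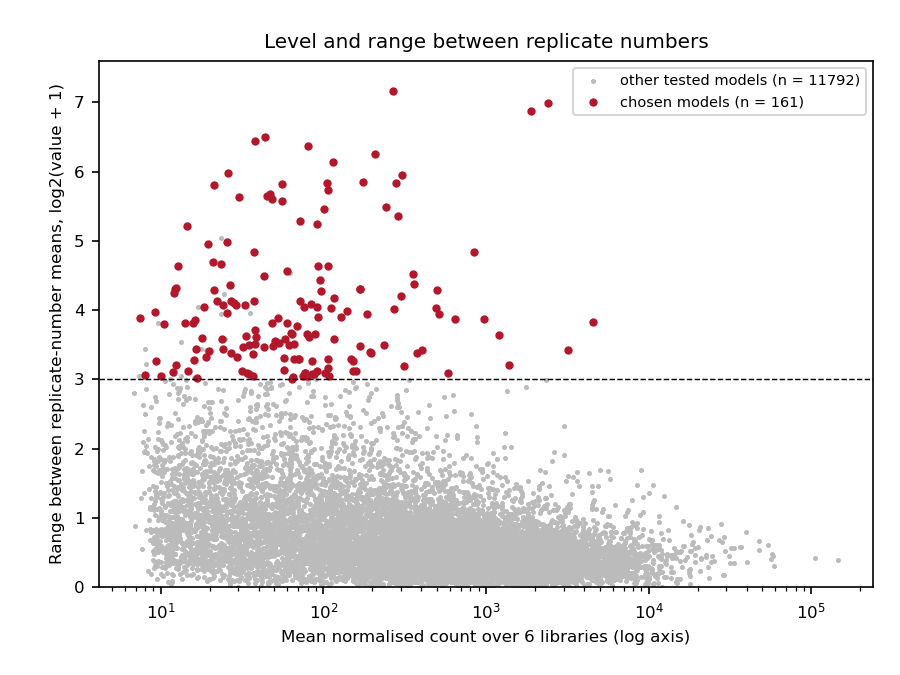
Range between the highest and lowest replicate-number mean, as log2(value + 1), against the mean normalised count over 6 libraries on a log axis. Red points are the 161 chosen models, grey points the other 11792 tested models, and the dashed line marks the range of 3. Models at high level have small ranges, and only 6 chosen models have a mean of 1000 or more.

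The low end of many members was close to the limit of detection. In their lowest number, 11 members had 0 reads in both libraries, 19 had 1 to 3 reads in all, and 131 had more than 3. Of the 11, 5 were lowest in number 2, 5 in number 3 and 1 in number 1. Against the floor of 3 reads per library, these 11 were at least 4.31-fold to 28.1-fold higher in their highest number. Over the 131 members with more than 3 reads, the ratio of the mean value in the highest to that in the lowest number had a median of 13.6 and ran from 8.37 to 134. In the highest number every member had at least 24 reads over 2 libraries, with a median of 280.

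Members differed in how many levels they took. In 88 members the middle number lay within 1 (log2) of the highest or the lowest, as in KH.S1022.2. In the other 73 it lay at least 1 from both, so all 3 numbers were at separate levels, as in KH.C1.152 and KH.L22.21.

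The identifiers of members differed in make-up from those of all tested models. After the letters KH, an identifier carries C, L or S with a number. Identifiers with S made up 35 of the 161 members (21.7%), against 1235 of the 11953 tested models (10.3%). Those with C made up 59.6% of members and 69.7% of models, and those with L 18.6% and 20.0%. S models were also less abundant, with a median mean value of 192 against 469 for C models, and low abundance went with membership. Among models with a mean under 100, members were 5.92% of S, 3.46% of L and 3.22% of C models. At 100 or more they were 0.919%, 0.505% and 0.557%. The order thus had S highest in both classes, although only 7 S members had a mean of 100 or more. By group, S identifiers made up 5 of the 36 members low in number 1, 12 of the 37 low in number 2 and 9 of the 31 low in number 3. They made up 6 of the 24 high in number 1, 2 of the 20 high in number 2 and 1 of the 13 high in number 3. Differences between groups were not tested.

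Of the S prefixes, 31 held a member and 3 held more than 1. KH.S1577 had 3 tested models, and all 3 were members low in number 3. Besides KH.S1577.1, these were KH.S1577.2, at 166 and 138, 92.5 and 90.4, and 12.2 and 5.12 in numbers 1, 2 and 3, and KH.S1577.3, at 318 and 307, 243 and 204, and 20.4 and 18.4. KH.S599 had 2 tested models and both were low in number 2, KH.S599.1 standing at 39.7 and 46.6, 1.02 and 0, and 11.2 and 18.4.

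KH.S404 behaved otherwise. KH.S404.8 stood at 177 and 241, 3.05 and 4.47, and 102 and 78.8 in numbers 1, 2 and 3, and KH.S404.12 at 178 and 223, 6.10 and 11.2, and 77.3 and 73.7. Both were low in number 2. The other 7 tested models of that prefix had ranges of only 0.012 to 0.63. These prefixes were picked because they held several members, and what a shared prefix means for position was not analysed here.

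The values of each guide alone are a description, since the rule used the mean of both guides and limited their difference. In 142 of the 161 members, the CrGFP libraries alone and the CrBra libraries alone named the same highest and the same lowest number. The rule favours such agreement. It also held in 61.0% of the 11826 models considered on CrGFP alone, described below. The median range was 3.75 in CrGFP alone and 3.88 in CrBra alone. It stayed under 3 in 19 members in CrGFP and in 17 in CrBra, with lowest values of 2.36 and 2.30.

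Because the rule used both guides, the same measure was also read in libraries that played no part in a choice, a step added after the data were seen. On the 3 CrGFP libraries alone, 172 of 11826 models had a range of 3 or more, and 134 of these were members. In the CrBra libraries, the same 2 numbers differed in the same direction in all 172, by a median of 3.61 and at least 0.53. The difference reached 3 in 123 models and was under 1 in 2. On the CrBra libraries alone, with the same filter on those 3 libraries, 187 of 11837 models were chosen, 139 of them members. In the CrGFP libraries all 187 kept the direction, by a median of 3.56 and at least 0.20, with 124 at 3 or more and 4 under 1. How often the direction was kept over all models considered was not tested, so nothing is read from the kept direction alone.

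Over all models considered, the other guide's difference between the same numbers had a median of 0.49 and 0.50. Highest and lowest number were the same with both guides in 61.0% of all models either way, and in 85.5% and 84.0% of the models chosen on CrGFP and on CrBra. Libraries of the same number are not shown to be independent, so this measures agreement between 2 libraries of a number and not between separate experiments.

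**Figure D4:**
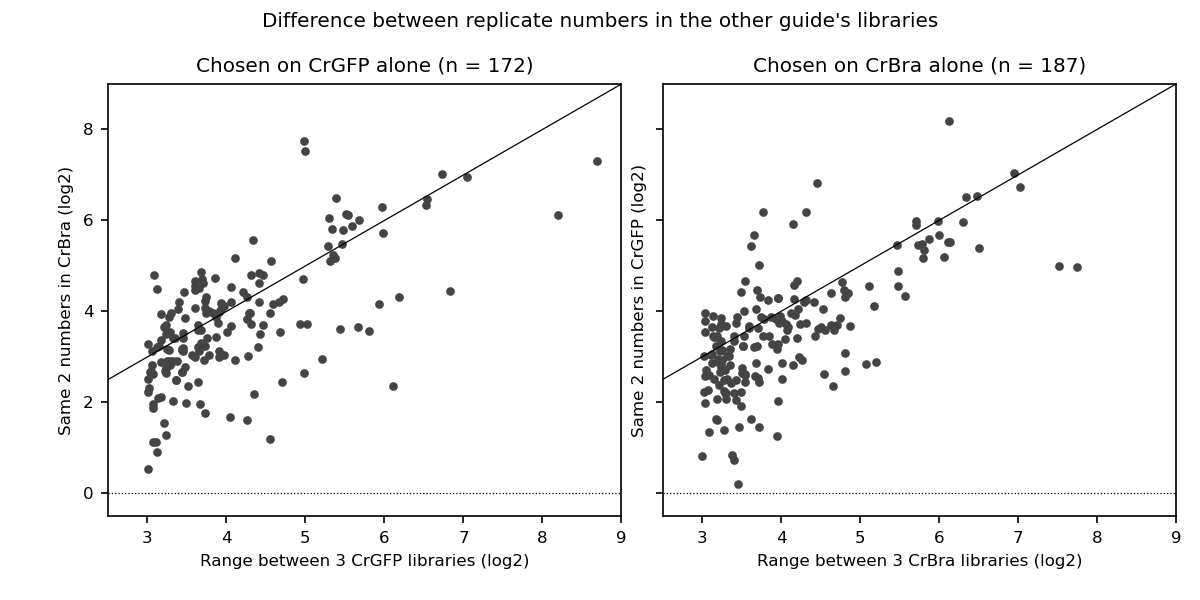
Left, 172 models chosen for a range of 3 or more on the 3 CrGFP libraries alone, with that range on the x axis and, on the y axis, the difference between the same 2 replicate numbers in the CrBra libraries (log2). Right, 187 models chosen on CrBra and read in CrGFP. The diagonal marks equality, and every point lies above 0.

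The study's own comparison asked which transcripts differ between Brachyury-cut and control embryos. The rule limited that difference, so the following values describe the members and are no evidence that the guide leaves them unchanged. The median log2 fold change of members, CrBra against CrGFP, was 0.0059, with 78 below 0 and 83 above, and single members ran from -0.999 to 0.805. In limma without the replicate number, 0 members were called, as were 0 of all 11953 models (0%). At an unadjusted p under 0.05 there were 0 members and 60 models. With the replicate number as a block, limma called 0 members and 48 models (0.402%), and 6 of the 161 members had an unadjusted p under 0.05, as did 570 of the 11953 models. Also with the block, edgeR called 57 models and DESeq2 58, and neither called a member.

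The guide effect was measured less precisely in members than in other models. The median standard error of a member's log2 fold change was 1.29 without the block and 0.25 with it. Over all tested models it was 0.25 and 0.086. The members were chosen for their spread between numbers, which enters the error of the fit without the block, and they were also of lower abundance. The part of either in the wider errors was not tested.

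Within numbers, the difference CrBra minus CrGFP had a median over members of -0.009 in number 1, 0 in number 2 and -0.034 in number 3. It lay within -0.8 to 0.8 in all 3 numbers in 105 members and in exactly 2 in 56. Outside these limits were 16.1%, 11.8% and 6.83% of members in numbers 1, 2 and 3. Over all tested models the shares were lower, at 3.87%, 2.80% and 2.74%. Of the 56 larger differences, 45 were in the number where the model was lowest. They rested on few reads: the median of the 2 libraries' mean count was 13, 3.5 and 8.5 reads in numbers 1, 2 and 3, against 71, 39.3 and 33.8 for differences inside the limits, and none rested on a mean above 84. CrBra was lower in 16, 9 and 5 of them and higher in 10, 10 and 6.

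A difference of 2 or more in size within 1 number was found in 9 members, mostly at near-absent levels. KH.L96.116 and KH.C11.33 had it in their lowest numbers, at the values given above, and so did KH.C1.379. KH.C9.500 held 22 reads in CrGFP and 4 in CrBra of number 1, against values of 114 and 109 in number 2 and 68.2 and 80.8 in number 3. KH.C6.69 stood at 1.02 and 7.81 in number 2, its lowest, against 73.6 and 66.9 in number 1 and 20.4 and 27.6 in number 3.

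In the remaining 4, 1 library of the lowest number was at 0. KH.C1.816 stood at 0 and 4.47 in number 2, KH.C1.512 at 0 and 3.35 in number 2, and KH.C3.913 and KH.L149.37 at 0 and 3.39 in number 1. Their highest values, all in number 3, were 119, 72.3, 55.0 and 30.5. The guide difference in these 4 was within a handful of reads.

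**Figure D5:**
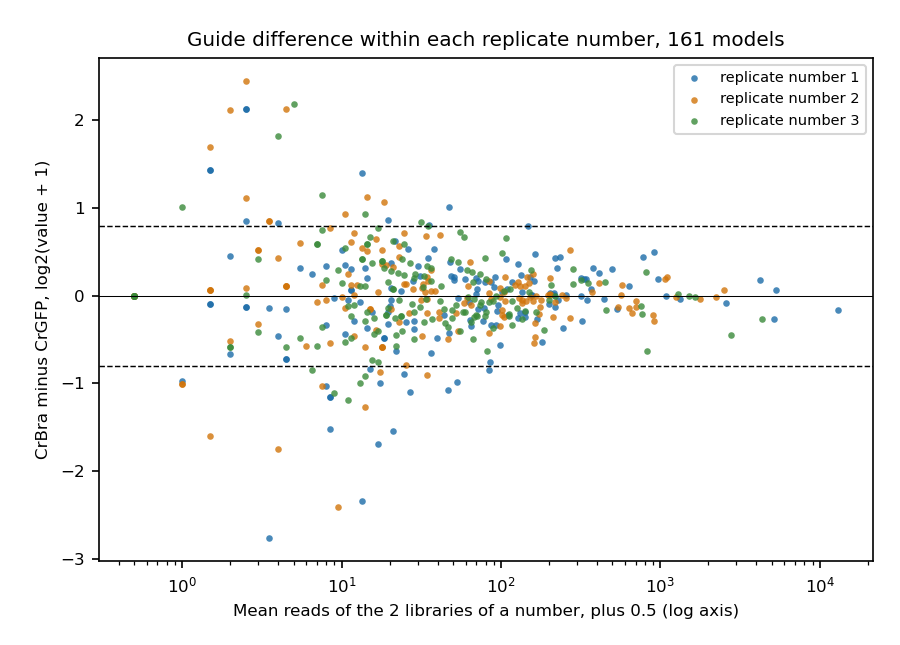
Difference CrBra minus CrGFP in log2(value + 1) within each replicate number for the 161 models, against the mean reads of the 2 libraries plus 0.5 on a log axis. Colours are replicate numbers and dashed lines mark -0.8 and 0.8. Points outside the lines lie at low read counts, at a mean of at most 84.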

How the data were processed

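The deposited table gives 2 blocks of 6 columns, and all 12 were matched to libraries by name. Per the file headers, the first block is counts normalised to library size by the authors (a signal with 1 factor per library), and the second is regularized log2 values deposited by the authors. The submitters' processing notes name TopHat2 2.9.8b and DESeq 1.8.1. The counting tool, strand setting and genome build are not given in the sources used here. Whole reads were recovered in 100% of values per column (tolerance 0.01 reads).

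Members followed the rule stated in the report. The rule, the lists and the tests were chosen with earlier results of these data known. In each of the 6 groups the 2 members with the largest range are named, with the models beside the threshold and every member with a guide difference of 2 or more. Other names were chosen after their values were seen, as said there.

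Fits used limma 3.58.1 (mean-variance trend, log2(value + 1)) in R 4.3.3 on 11953 models, with Benjamini-Hochberg adjustment over all of them, two-sided, at 0.05. edgeR 4.0.16 and DESeq2 1.42.0 on recovered reads were alternatives. The test of the numbers and the guide test without the block were also run on simulated data, with no outcome given here. The simulated guide data held no differences among replicate numbers. The guide test with the block was not run on simulated data. Deviations from group means correlated at 0.86, 0.88 and 0.82 between libraries of the same number, each over 0.1, so the numbers were taken to pair the libraries. Without the members these were 0.83, 0.85 and 0.78. P-values measure only spread among these samples. In the test of the numbers and the guide test with the block, that spread is how the guide difference varied among numbers. In the guide test without the block, it is the spread between libraries of the same guide. Libraries of the same number are not shown to be independent.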

Additional observations from a re-analysis of the deposited data

How the results depend on the processing

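The number of members depended on how low values were treated and on the thresholds of the rule. It was 161 by the rule, 101 with a pseudocount of 5 (99 of them among the 161), 268 with no filter, 68 with a minimum of 50 and 2 on the regularized log2 values, where the members' ranges were 0.16 to 3.18. It was 499 with a range of 2 or more, 67 with 4 or more and 105 with the guide condition in all 3 numbers, as those thresholds admit more or fewer models. It stayed within 1.5 times with a pseudocount of 0.5 (173), TMM or upper-quartile scaling (162 each) and no guide condition (180). With only the range taken in CrGFP or in CrBra libraries alone it was 175 and 178. The filter and the guide condition still used both guides there. Also within 1.5 times were a filter on 2 libraries (241) and a range of 3 in each guide (125). The last 2 were chosen after seeing the data. Without each single library it ran from 119 to 146, of which 110 to 123 were among the 161. Only 2 numbers then kept both guides, and the guide condition had to hold in both, which is stricter than the rule. The part of this in the lower counts was not tested. The ranges of the 12 members named by group were at 3 or more wherever a setting gave them a value, except on the regularized values, where 11 were under 3. The minimum of 50 gave a value for only 4 of the 12. The count of models differing among numbers ran from 6369 of 11953 (53.3%, DESeq2) to 8931 of 14757 (60.5%, no filter) over its alternatives. The largest share was 73.9%, with a pseudocount of 5. All 161 members were included each time, but the rule used this contrast, so nothing is read from that.

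With the replicate block, 0 members were called for the guide in limma, edgeR and DESeq2, under both pseudocounts and with no filter. Of all models, 46 and 54 were called with pseudocounts of 0.5 and 5, and 27 of 14757 with no filter. Without the block, 0 members were also called without each single library, where 0 of all models were called too. On all 6 libraries without the block, DESeq2 called 21 of 11953 models (0.176%) and edgeR 0, and neither called a member. With the block, 0 to 1 members were called without each pair. Without pairs 2 and 3, 25 and 100 of all models were called. The exception was KH.S2734.1, called in limma without pair 1 (adjusted p = 0.00459), where 88 of all 11953 models (0.736%) were called. That fit has 1 residual degree of freedom per model, and the adjusted p of KH.S2734.1 was 0.257 with all pairs. In the fit without the block, the members' median guide log2 fold change lay between -0.16 and 0.28 without each library. With the block it was -0.015, 0.039 and -0.017 without pairs 1, 2 and 3. What causes these shifts was not tested. Depth limits the 30 members with 3 or fewer reads in their lowest number.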
